A study of Homo sapiens with 12 samples.

Results

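CEBPA and CEBPB were examined through the histone-mark peaks that lay within 100 kb of either gene in HepG2 cells, an established line derived from a human hepatocellular carcinoma. The genes lie at chr19:33790840-33793430 (minus strand) and chr20:48807120-48809227 (plus strand) in GRCh37, and each position is counted from 1. Of 273551 peaks in 3 lists, 183 were near these genes, 85 around CEBPA and 98 around CEBPB. The 183 peaks were taken by position alone, whatever their strength. The genes were chosen with earlier results of these data known, and many of the regions named below were picked by their values. The lists hold the pooled chromatin immunoprecipitation and sequencing (ChIP-seq) peaks of H3K27ac, H3K4me1 and H3K4me3. Each list pools 3 libraries of untreated cells, and 3 further libraries were controls, titled as input but labelled with an anti-mouse immunoglobulin. All 12 libraries came from this line alone, grown without treatment, so no condition was compared. There were no values per library, so none of the differences below carries a replicate error or a test, and the depth behind each peak is unknown. Whether the defining genes of the liver carried active marks was not analysed here.

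CEBPA and CEBPB encode C/EBP alpha and C/EBP beta, transcription factors of the basic leucine zipper family that bind DNA as dimers. Both genes are intronless and give long and short proteins from alternative translation starts. C/EBP alpha maintains the differentiated state of hepatocytes, fat cells and granulocytes and restrains proliferation. C/EBP beta is induced by interleukin signals, drives acute-phase genes in the liver and takes part in liver regeneration. Of the marks, H3K27ac is found at active promoters and enhancers and H3K4me3 mainly at promoters. H3K4me1 is found at enhancers, including ones that are not acetylated, and beside promoters.

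The promoter sequences are shown because both start sites lay under strong H3K27ac and H3K4me3 peaks. They are RefSeq entries of GRCh38.p14, matched by gene symbol, and run from 250 bases before to 50 bases after a transcript start, 5′ to 3′ on the gene's strand. Their positions are of that build and were not matched to the GRCh37 peaks. Capitals mark a TATA box (TATAAA) or a CCAAT box or the first bases of a cyclic AMP response element (TGACG), searched on both strands.

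CEBPA, chr19:33302485-33302784, minus strand: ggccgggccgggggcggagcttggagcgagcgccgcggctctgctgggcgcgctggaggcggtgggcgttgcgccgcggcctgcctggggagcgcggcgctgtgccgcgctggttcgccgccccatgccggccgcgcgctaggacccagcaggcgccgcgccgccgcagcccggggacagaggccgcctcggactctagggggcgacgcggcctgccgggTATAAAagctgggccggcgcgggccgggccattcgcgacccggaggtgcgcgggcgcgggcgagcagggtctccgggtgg

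CEBPB, upstream start, chr20:50190333-50190632, plus strand: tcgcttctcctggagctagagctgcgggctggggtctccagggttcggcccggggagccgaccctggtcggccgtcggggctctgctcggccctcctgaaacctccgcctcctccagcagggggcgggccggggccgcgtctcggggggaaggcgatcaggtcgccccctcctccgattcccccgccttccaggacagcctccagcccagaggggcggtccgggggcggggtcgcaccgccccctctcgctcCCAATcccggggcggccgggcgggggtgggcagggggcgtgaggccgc

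CEBPB, downstream start, chr20:50190580-50190879, plus strand: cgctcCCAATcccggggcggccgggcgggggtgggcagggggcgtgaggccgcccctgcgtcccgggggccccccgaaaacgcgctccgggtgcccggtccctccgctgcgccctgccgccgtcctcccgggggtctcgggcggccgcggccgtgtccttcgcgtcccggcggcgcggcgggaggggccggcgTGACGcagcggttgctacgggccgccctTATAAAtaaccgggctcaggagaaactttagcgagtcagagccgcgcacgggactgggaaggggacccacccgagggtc

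The CEBPA entry held a TATA box that began 30 bases before the start and no CCAAT box. The downstream CEBPB entry held a TATA box 29 bases before the start and a TGACG match 57 bases before it. The upstream CEBPB entry had no TATA box, and its CCAAT box is the same one that opens the downstream entry, since the entries overlap. TATAAA was present in 11.5%, CCAAT in 34.6% and TGACG in 24.6% of the 35116 RefSeq promoters of this length. The GC box GGGCGG matched in each of the 3 entries, against 45.0% of all promoters. All were rich in CpG: the CEBPA entry had 50 CpG in 300 bases and 80.7% GC, the CEBPB entries 31 and 43 CpG with 77.0% and 76.7% GC, against medians of 14 CpG and 58.7% GC over all promoters. No entry held the full element TGACGTCA or the E-box CACGTG, which 1.85% and 7.26% of all promoters hold. None matched the C/EBP pattern TTNNGNAA (36.8% of all promoters), the FOXA pattern TGTTTNC (18.0%) or the STAT pattern TTCNNNGAA (7.66%). A match, or its absence, describes only these letters in this window.

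At the start sites, both genes lay wholly inside a wide H3K4me3 peak and were fully covered by H3K27ac. The authors' signal value, which describes the strength of a peak within its own list, was 47.4 for H3K4me3 at CEBPA (chr19:33789220-33796091) and 70.7 at CEBPB (chr20:48805725-48811333). Among the 24446 H3K4me3 peaks these ranked 4481 and 400. By width the order of the genes turned around: the CEBPA peak spanned 6872 bp and ranked 126 in the list, the CEBPB peak 5609 bp and ranked 335. CEBPB thus had the stronger H3K4me3 peak and CEBPA the wider one.

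The marks were placed differently about the start sites. At CEBPA, H3K4me3 reached 2661 bp upstream of the start and 4210 bp downstream, and its summit stood 860 bp upstream. At CEBPB it reached 1395 bp upstream and 4213 bp downstream, with the summit 2321 bp downstream, 214 bp past the end of the gene. The strongest point of the mark was therefore before the gene at CEBPA and just beyond it at CEBPB.

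H3K27ac at CEBPA was listed as a pair of peaks, separated by 65 bp upstream of the start. The peak over the gene (chr19:33788957-33793524) had a signal value of 28.6, and its upstream neighbour (chr19:33793590-33796824) 31.0. Together they spanned 7868 bp. At CEBPB a peak of 6750 bp (chr20:48804899-48811648) had a signal value of 38.4 and a summit 2285 bp downstream of the start, close to that of H3K4me3. It ranked 2113 of 66513 peaks by signal value, and the CEBPA peak over the start ranked 4484. By −log10 p-value their ranks were 855 and 7837, and by width 998 and 3021. CEBPB thus ranked ahead of the single CEBPA peak over the start by each measure. The order by width rested on the split at CEBPA, since the pair spanned 7868 bp against 6750 bp at CEBPB. At a like signal value, −log10 p-values of H3K27ac were also higher over chromosome 20 as a whole (median ratio 1.61), as described below. Acetylation ran past the edges of H3K4me3 on both sides of each gene.

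**Figure D1:**
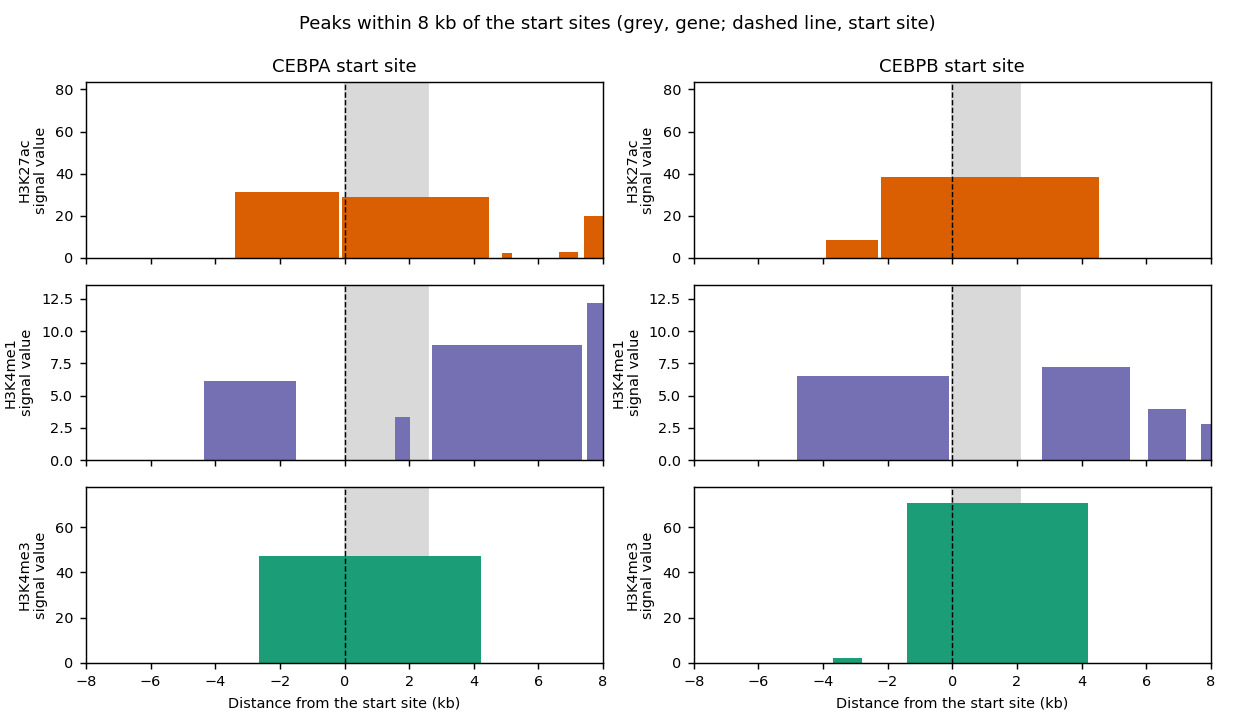
Peaks within 8 kb of the start sites of CEBPA (left) and CEBPB (right). The horizontal axis is the distance from the start site in kb in the direction of transcription, bar height is the authors' signal value of each mark, bar width is the extent of the peak, and grey marks the gene. H3K4me3 and H3K27ac cover both genes, while H3K4me1 stands beside the CEBPB gene and covers 474 bp of CEBPA.

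H3K4me1 was absent from both start sites and flanked them. At CEBPB the nearest peaks ended 93 bp before the start (chr20:48802325-48807027, signal value 6.51) and began 2767 bp after it (chr20:48809887-48812620, 7.18), so that the whole gene lay in a stretch of 2859 bp with no H3K4me1. At CEBPA the corresponding stretch around the H3K4me3 summit was 3054 bp, from 1497 bp upstream to 1556 bp downstream. It was bounded downstream by a small peak of 474 bp inside the gene (signal value 3.35), beyond which a peak of 4636 bp (8.89) began 2703 bp from the start. For comparison, the H3K4me1-free stretch around the 5953 H3K4me3 summits of the strongest quartile that lay outside H3K4me1 had a median of 2082 bp (interquartile range 1493 to 3136). The CEBPA and CEBPB stretches were thus longer than the median and within that range. At CEBPA this rested on the 474 bp peak, whose signal value was below the list median of 3.42. Without that peak the stretch would run on to the one at 2703 bp and exceed the range.

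Around CEBPA, 20 H3K27ac, 53 H3K4me1 and 12 H3K4me3 peaks covered 48.5, 100.1 and 20.0 kb of the 202591 bp window. In the RefSeq gene order of GRCh38, LRP3 and SLC7A10, a transporter of small neutral amino acids, lie beyond the end of CEBPA, and CEBPA-DT, CEBPG and PEPD lie upstream. CEBPG encodes another C/EBP family member, and PEPD a peptidase that splits dipeptides ending in proline. Peaks were not assigned to these genes, since their GRCh37 positions were not used here.

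Only 2 of the 12 H3K4me3 peaks near CEBPA exceeded the median signal value of their list, 13.3: the one over the gene and one with its summit 72.0 kb upstream (chr19:33863698-33867607, 49.3). The latter coincided with the strongest H3K27ac peak near either gene (chr19:33863574-33869032), whose signal value of 75.8 ranked 66 in its list. The other 10 H3K4me3 peaks had signal values of 1.76 to 5.97 and widths of 313 to 1916 bp. All 12 overlapped both other marks. The whole list did so in 74.1% of peaks, but most of the genome was less densely marked than this window.

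The strongest acetylated regions downstream of CEBPA were wide, and their H3K4me3 was weak in signal value. A region of 7650 bp with its summit 26.1 kb downstream (chr19:33764363-33772012) had an H3K27ac signal value of 30.2, close to the 28.6 of the peak over the gene. It lay inside the strongest H3K4me1 peak near CEBPA (chr19:33763091-33773204, 10114 bp, 12.3, rank 429 of 182592), and the H3K4me3 within it was a peak of 313 bp with a signal value of 1.76. A second region of 4182 bp (chr19:33781835-33786016), with its summit 8.60 kb downstream, had 19.6 for H3K27ac, 12.2 for H3K4me1 and 3.64 for H3K4me3. H3K4me3 covered 1782 bp of it. Further out, 53.5 kb and 61.0 kb downstream, H3K27ac peaks had signal values of 16.7 and 9.88, with H3K4me3 of 4.95 and 4.06. H3K4me3 covered 953 of 2655 bp and 727 of 1165 bp of these peaks.

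Between these lay a stretch of 23.5 kb without H3K27ac or H3K4me3, from 29.1 to 52.6 kb downstream (chr19:33740858-33764362). H3K4me1 covered 71.1% of it in 10 peaks that lay in or reached into it, with signal values of 3.29 to 12.3. An enhancer of CEBPA that acts in myeloid blood cells is known about 42 kb downstream of the human gene. Within 5 kb of that distance H3K4me1 covered 5453 bp in 6 peaks, and 0 H3K27ac and 0 H3K4me3 peaks were listed. Whether any of these peaks covers that enhancer was not determined.

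Upstream of CEBPA, acetylation was absent between the promoter and 27.9 kb. The first H3K27ac peak beyond the promoter had its summit 28.1 kb upstream (chr19:33821291-33822111, 5.12), and the next, 46.2 kb upstream (chr19:33838277-33840398), had 10.2 beside an H3K4me1 peak of 10.4. The longest stretch without any mark was 13.4 kb, from 48.9 to 62.3 kb upstream. At the far edge a single H3K4me1 peak of 17841 bp (chr19:33880420-33898260, 11.2) ranked 17 by width among all 182592. It contained or overlapped H3K27ac peaks of 7544 bp (16.3) and 6183 bp (21.8), and ran past the 100 kb limit. The 6183 bp region was the strongest H3K27ac peak near CEBPA without H3K4me3.

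**Figure D2:**
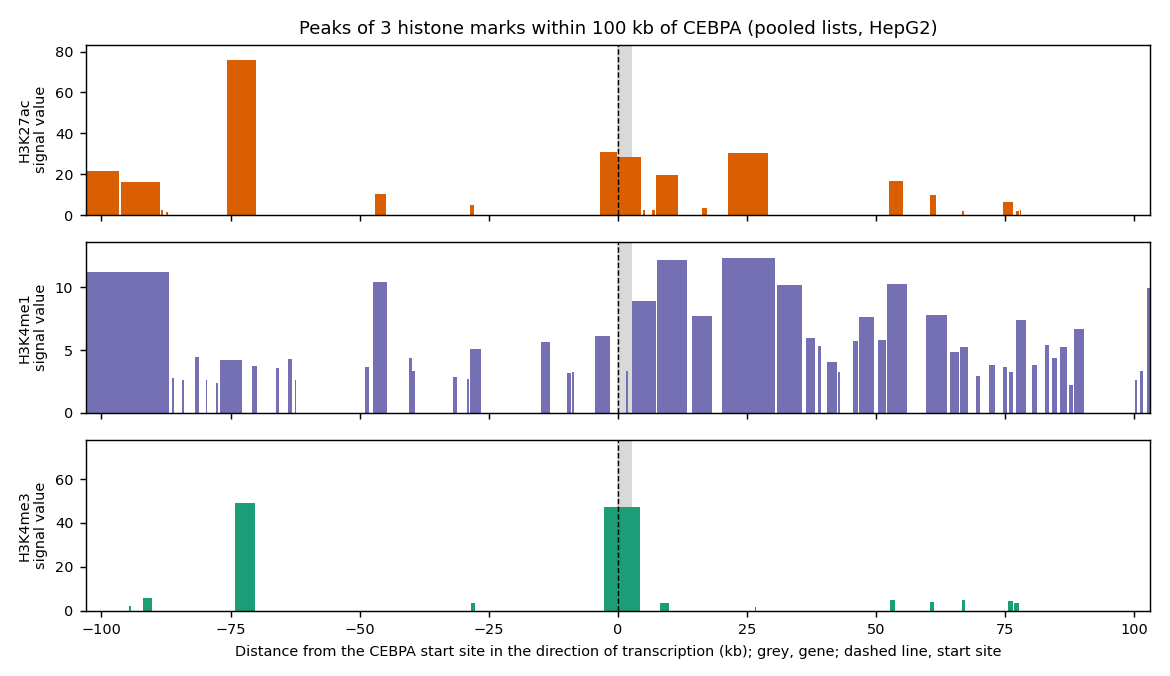
Peaks within 100 kb of CEBPA. The horizontal axis is the distance from the start site in kb in the direction of transcription, bar height is the authors' signal value and bar width the extent of each peak. Peaks that cross the limit run past the frame. The strong H3K4me3 peaks stand at the gene and 72.0 kb upstream, and the wide acetylated region 26.1 kb downstream carries H3K4me3 of only 1.76.

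Around CEBPB, 27 H3K27ac, 62 H3K4me1 and 9 H3K4me3 peaks covered 44.1, 102.2 and 20.1 kb of 202108 bp. In RefSeq order UBE2V1, a partner of ubiquitin-conjugating enzymes, PEDS1, an enzyme of plasmalogen lipid synthesis, and the non-coding CEBPB-AS1 lie upstream, and the non-coding PELATON lies downstream. Peaks were again not assigned to them.

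H3K4me3 above the list median of 13.3 stood at the CEBPB gene and at 4 places upstream. Their signal values were 61.2 with the summit 77.7 kb upstream (chr20:48727703-48730624), 23.7 at 74.9 kb (chr20:48731309-48733174), 54.6 at 37.2 kb (chr20:48768611-48772433) and 24.1 at 17.8 kb (chr20:48787628-48790193). The peaks of 23.7 and 24.1 lay below 41.9, where the strongest quartile of the list begins. The 4 H3K4me3 peaks below the list median had values of 1.59 to 5.13. As at CEBPA, all 9 overlapped both other marks. H3K4me3 above the list median was thus found at 5 peaks near CEBPB and 2 near CEBPA. The mark covered 20.0 kb near CEBPA and 20.1 kb near CEBPB, but within 50 kb 9667 and 14997 bp, and in the stronger 50% of the list 10782 and 16786 bp.

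H3K27ac accompanied these peaks with signal values of 41.0 at 77.6 kb, 26.9 at 37.1 kb and 18.1 at 17.8 kb upstream. At the peak 74.9 kb upstream H3K27ac had 3.10 and 3.40, in the top 50.7% and 46.9% of its list. The H3K4me3 peak there was in the top 41.8% of its own list. At 24.6 kb upstream an H3K27ac peak of 3965 bp (chr20:48780059-48784023) had 30.0, in the top 6.13% of its list. The H3K4me3 peak inside it had 5.13, in the top 65.6% of its own list. Upstream H3K27ac peaks without H3K4me3 were weaker, up to 7.38 at 10.9 kb (chr20:48795683-48796959).

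Downstream of CEBPB, H3K4me1 was broad and acetylation sparser than upstream. H3K27ac covered 11.2 kb of the 100 kb downstream and 30.8 kb upstream, while the median genome window of 102108 bp held 0 bp. The 10 H3K27ac peaks there, beyond the one over the gene, had a median signal value of 1.81, below the 3.15 of the whole list, and only 2 exceeded 10. These were 12.0 with the summit 52.4 kb downstream (chr20:48858074-48861432) and 13.6 at the outer limit (chr20:48907104-48911866). H3K4me1 peaks of 7842 bp (chr20:48857555-48865396, 9.27), 13442 bp (chr20:48882790-48896231, 11.1) and 7344 bp (chr20:48896586-48903929, 9.63) stood there. Further wide ones had 8105 bp (chr20:48831584-48839688, 7.97) and 8595 bp (chr20:48907128-48915722, 8.26), of which H3K27ac covered 569 and 6004 bp. The last ran past the 100 kb limit. The 13442 bp peak ranked 72 in its list by width, and H3K27ac covered 1687 bp of it. H3K27ac was missing from 26.6 to 51.0 kb and from 54.3 to 78.9 kb downstream, stretches of which H3K4me1 covered 59.2% and 64.3%.

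**Figure D3:**
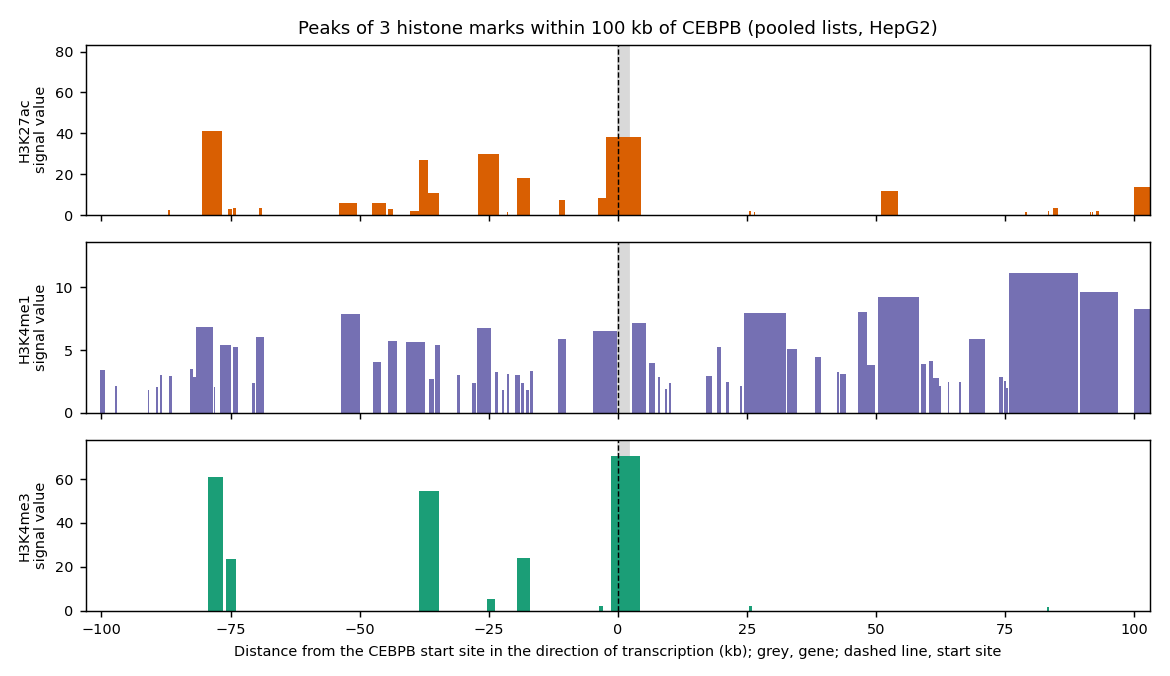
Peaks within 100 kb of CEBPB, with axes as in the map of CEBPA: distance from the start site in kb, and the authors' signal value. H3K4me3 peaks above the list median stand at the gene and upstream of it, whereas downstream peaks are mainly H3K4me1, with 2 H3K27ac peaks above 10.

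The sides of the genes were compared by the length of sequence under each mark. H3K4me1 covered more downstream than upstream at both: 64.1 against 35.5 kb per 100 kb at CEBPA, and 63.3 against 38.9 kb at CEBPB. H3K27ac was even at CEBPA, with 22.5 kb downstream and 23.4 kb upstream, and uneven at CEBPB, with 11.2 and 30.8 kb. As a result 34.1% of the downstream H3K4me1 bases at CEBPA also carried H3K27ac, against 16.6% at CEBPB, while upstream the shares were 56.5% and 63.7%. Over the whole genome 32.6% of H3K4me1 bases carried H3K27ac. H3K4me3 followed the acetylation at CEBPB, with 15.0 kb upstream and 3.02 kb downstream.

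**Figure D4:**
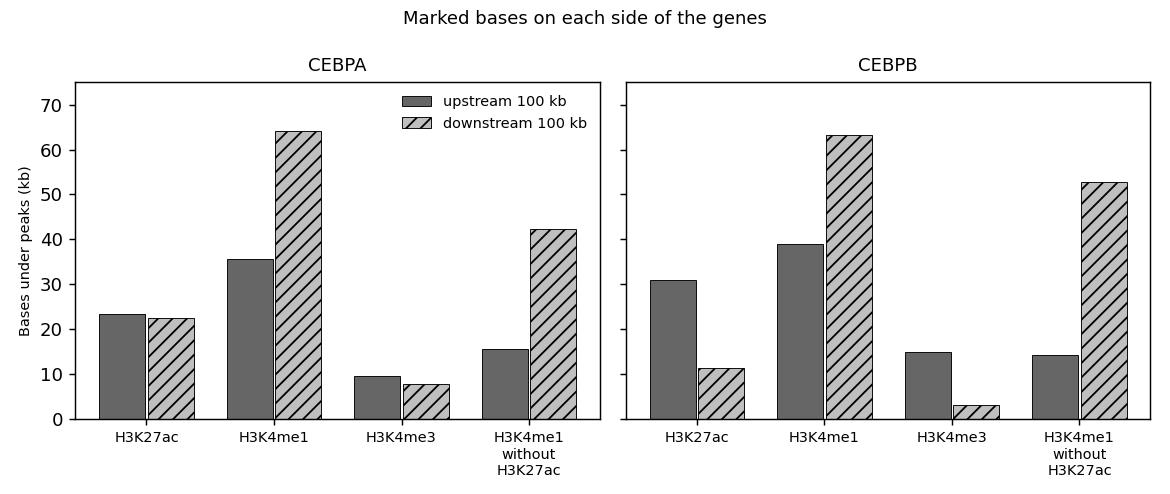
Length of sequence under peaks (kb) in the 100 kb upstream (dark) and downstream (hatched) of CEBPA (left) and CEBPB (right), for each mark and for H3K4me1 without H3K27ac. The bars are sums over 1 pooled list per mark and have no error. H3K4me1 without H3K27ac reaches 42.3 kb downstream of CEBPA and 52.7 kb downstream of CEBPB.

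By strength within the lists, 13 of 20 H3K27ac, 36 of 53 H3K4me1 and 2 of 12 H3K4me3 peaks near CEBPA exceeded the list median. Near CEBPB 15 of 27, 28 of 62 and 5 of 9 did, close to the 50% that a median sets. The median signal value of H3K27ac was 8.23 near CEBPA and 3.40 near CEBPB, against 3.15 over the list. For H3K4me1 the medians were 4.37 and 3.24, against 3.42. For H3K4me3 they were 4.27 and 23.7, against 13.3, but the 9 peaks near CEBPB fell into 5 of at least 23.7 and 4 of at most 5.13. The strongest 10% of each list held 4 H3K27ac, 13 H3K4me1 and 0 H3K4me3 peaks near CEBPA, and 4, 11 and 2 near CEBPB. H3K27ac also differed by side, with a median signal value of 13.2 upstream and 5.13 downstream of CEBPA, and 5.86 and 1.83 at CEBPB.

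Region classes were counted by mark combination and set beside the whole lists. H3K27ac peaks that overlapped H3K4me3 (promoter-like) numbered 12 of 20 near CEBPA and 11 of 27 near CEBPB, against 31.7% of the list. Those with H3K4me1 and no H3K4me3 (enhancer-like) numbered 8 and 16, against 59.8%. None of the 47 H3K27ac peaks lacked both methylations, a class that held 8.52% of the list. H3K4me1 covered 49.4% of the CEBPA window and 50.6% of the CEBPB window, more than in most of the genome. The list is therefore not a background of equally marked sequence. Promoter-like peaks had a median H3K27ac signal value of 16.5 near CEBPA and 10.9 near CEBPB, against 13.1 over the list. Enhancer-like peaks had 2.52 and 2.61, against 2.62, so this contrast between the classes was that of the whole list. The promoter-like count near CEBPA rested on weak H3K4me3: with the weaker 50% of the H3K4me3 list left out it was 3, against 7 near CEBPB. H3K4me1 peaks with neither other mark numbered 35 of 53 near CEBPA and 35 of 62 near CEBPB, against 61.6%.

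The summits of H3K27ac and H3K4me3 lay closer together near CEBPB. An H3K27ac summit stood within 200 bp of the H3K4me3 summit at 9 of 9 peaks near CEBPB and 4 of 12 near CEBPA. Over the whole H3K4me3 list the share was 51.5%. That list includes peaks without H3K27ac, since 18.7% overlapped H3K4me1 only and 3.78% neither mark. All H3K4me3 peaks near these genes overlapped H3K27ac, so the shares are not fully alike. At the H3K4me3 peak over CEBPB the nearest H3K27ac summit was 36 bp away, over CEBPA 362 bp, and at the strong peak 72.0 kb upstream of CEBPA 671 bp. Of the H3K4me3 peaks below the list median, 9 of 10 near CEBPA and 4 of 4 near CEBPB had their summit inside an H3K4me1 peak, against 71.4% of such peaks in the list. Of those above it, 0 of 2 and 1 of 5 did, against 9.78%.

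Against windows of the same size laid end to end over the genome, both neighbourhoods were among the most densely marked by length. The length under H3K27ac exceeded that of 98.8% of windows for CEBPA and 98.3% for CEBPB, under H3K4me1 99.7% for each, and under H3K4me3 98.3% and 98.5%. Of the 14968 windows set beside CEBPA, 8065 held any H3K27ac peak. Compared only with windows centred on the strongest quartile of H3K4me3 peaks, the values were 92.9% and 90.3% for H3K27ac, 98.6% and 98.8% for H3K4me1, and 84.8% and 85.0% for H3K4me3. Among the 455 such windows on chromosome 19, CEBPA exceeded 84.4% for H3K27ac, 96.5% for H3K4me1 and 58.9% for H3K4me3. Among the 191 on chromosome 20, CEBPB exceeded 90.6%, 99.5% and 89.0%. By number of peaks, CEBPA exceeded 73.9%, 90.6% and 89.7% of all windows centred on strong H3K4me3, in the same order of marks. Within chromosome 19 it exceeded 55.8%, 75.4% and 67.7%. CEBPB exceeded 89.1%, 97.7% and 79.4% by number, and 92.1%, 98.4% and 81.2% within chromosome 20. H3K4me1 peaks wider than 5 kb numbered 3 near CEBPA and 5 near CEBPB, and made up 1.42% of the whole list.

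The p-values set CEBPB further ahead of CEBPA than the signal values did. The −log10 p-value of the H3K4me3 peak was 11659 at CEBPB, rank 24 of the list, and 3208 at CEBPA, rank 6269. Each member was therefore set beside peaks of other chromosomes, 19 and 20 left out, with a signal value within 10% of its own. Near CEBPB the −log10 p-value was higher than the median of those peaks at 26 of 27 H3K27ac, 62 of 62 H3K4me1 and 9 of 9 H3K4me3 peaks, with median ratios of 1.64, 1.64 and 1.80. Near CEBPA it was higher at 7 of 20, 21 of 53 and 7 of 12, with median ratios of 0.905, 0.956 and 1.03. The same ratios over all peaks of chromosome 20 were 1.61, 1.44 and 1.75, and over chromosome 19 0.998, 1.02 and 1.02, so the ratios near CEBPB were like those of its chromosome as a whole. The cause was not tested. Peak strength is therefore compared mainly by signal value. Where ranks by p-value are set beside it, they carry this difference between the chromosomes. Which peaks are listed also depends on the p-value, so counts and medians over listed peaks are not free of this difference between the chromosomes, and its part in them was not tested.

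**Figure D5:**
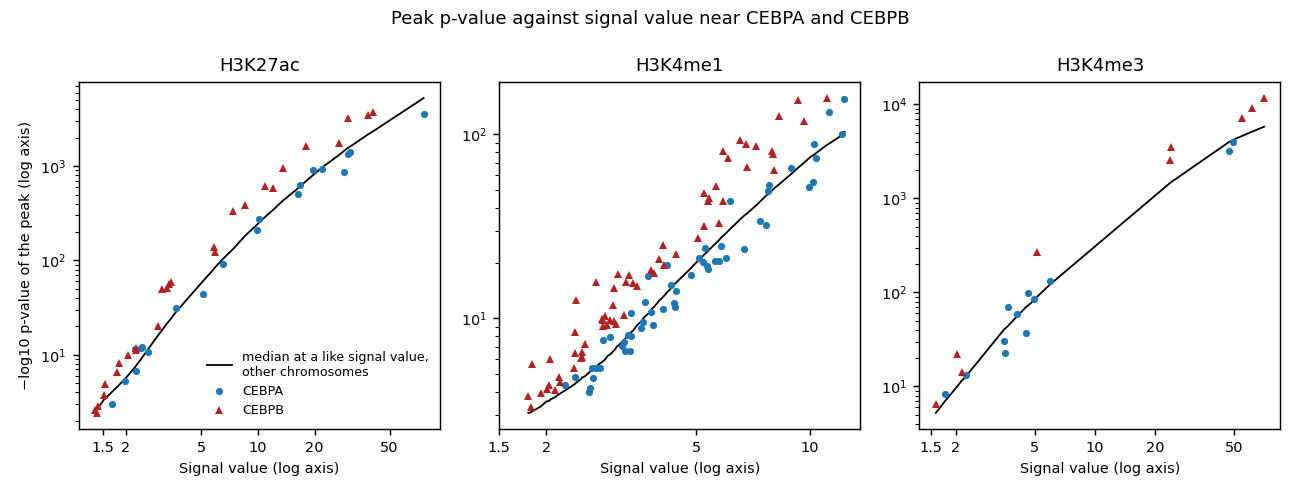
−log10 p-value of each peak near CEBPA (blue circles) and CEBPB (red triangles) against its signal value, both on log axes, with 1 panel per mark. The line is the median of peaks on chromosomes other than 19 and 20 with a signal value within 10%. CEBPB peaks lie above the line at 9 of 9 H3K4me3 peaks, and CEBPA peaks lie on both sides of it.

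The limit of 100 kb cut through marked regions. Just outside it, downstream of CEBPA, stood an H3K4me3 peak of 2782 bp with a signal value of 38.9, at 103603 bp from the gene, while the outermost one inside on that side had 3.53. Upstream of CEBPA the next H3K4me3 peak outside (45.7) was 217829 bp away, and the outermost inside had 2.26. Around CEBPB the outermost H3K27ac peak inside the limit downstream had 13.6 and the next one outside 2.10.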

How the data were processed

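Per the labels, chromatin of untreated HepG2 cells was immunoprecipitated for H3K27ac, H3K4me1 or H3K4me3, in 3 libraries each beside 3 controls. The submitters' processing notes name MACS2 and hg19 (GRCh37). The version, threshold and use of the controls are not given in the sources used here. The authors deposited 1 narrowPeak list per mark, which pools the replicates going by its name. The signal value of each peak, the −log10 of its p-value and q-value and its score are the authors' own, as deposited. The score was not used. The lowest −log10 p-value listed was 2.00 for H3K27ac and H3K4me1 and 2.03 for H3K4me3. Whole-number summit offsets were added to peak starts. There were 0 columns of values per library, so depth and replicate spread are unknown and no p-value was computed.

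Peaks on chromosomes 1 to 22 and X were used. A peak belonged to a gene if it came within 100 kb of it, and marks were shared where they had 1 bp in common. No peaks of a list overlapped each other. The regions named were those over or nearest to the start sites, the 3 strongest per mark, the 3 strongest H3K27ac without H3K4me3 and the widest. Others near them were named after their values were seen: the stretch 42 kb from CEBPA, peaks whose marks are set side by side, and those at the limit. The genes and lists were chosen with earlier results of these data known. The planned counts of marks at start sites of C/EBP family, partner and target genes, the liver marker check and the genes most like the members were not run, since no gene annotation of GRCh37 was used. Overlap and joining were tested on simulated data. Python 3.11.15, numpy 2.4.6, pandas 2.3.3 and matplotlib 3.10.9 were used. Alternatives were a distance of 50 or 200 kb, only peaks whose −log10 q-value reached 5, and only those above the list median (the stronger 50%). Others were equal numbers per list, joining within 1000 bp, 50% overlap, windows of 200 bp on each side of summits and other rankings. Added after seeing the data were leaving out weak H3K4me3 and windows centred on strong H3K4me3.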

Additional observations from a re-analysis of the deposited data

How the results depend on the processing

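No paired analysis was possible because the lists pool the replicates, and leaving out a replicate was not possible for the same reason. Of 138 alternative values 59 stayed the same and 79 moved. A count or length was taken as the same within 1.5 times, and a percentile or share of a list within the binomial interval of the first value, so small moves of these count too. The wider and narrower distances from the start sites of other C/EBP genes were not run.

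At 50 kb CEBPA had 10 H3K27ac, 25 H3K4me1 and 4 H3K4me3 peaks over 24495, 53766 and 9667 bp, with 6 promoter-like and 4 enhancer-like regions. CEBPB had 14 H3K27ac and 35 H3K4me1 peaks over 27207 and 48577 bp, with 7 of each class. At 200 kb CEBPB had 41, 118 and 19 peaks, 72923 bp of H3K27ac, 222452 bp of H3K4me1 and 18 promoter-like regions. The stronger 50% left CEBPA 13 H3K27ac and 2 H3K4me3 peaks, 10782 bp of H3K4me3 and 3 promoter-like regions, and CEBPB 15, 28 and 5 peaks with 6 promoter-like and 9 enhancer-like regions. Equal numbers left CEBPA 12 H3K27ac and 16 H3K4me1 peaks, 65913 bp of H3K4me1 and 2 enhancer-like regions, and CEBPB 12 and 14 peaks, 63597 bp, and 7 promoter-like and 4 enhancer-like regions. Joining gave CEBPA 12 H3K27ac and 26 H3K4me1 peaks and 2 enhancer-like regions, and CEBPB 27 H3K4me1 peaks and 10 enhancer-like regions. With 50% overlap CEBPA had 7 promoter-like and 13 enhancer-like regions. Summit windows gave CEBPA 6 and 4, and CEBPB 8 enhancer-like. Without weak H3K4me3 CEBPA had 3 and 17, and CEBPB 7 promoter-like.

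Percentiles of length at 50 and 200 kb were 97.9 and 96.8 for H3K27ac, 99.4 and 98.0 for H3K4me1 and 97.3 and 96.1 for H3K4me3 at CEBPA. At CEBPB they were 98.99 and 99.96 for H3K4me1 and 99.3 and 97.3 for H3K4me3. Around strong H3K4me3 peaks they were 92.9, 98.6 and 84.8 at CEBPA and 90.3, 98.8 and 85.0 at CEBPB, in the same order of marks. All 12 other rankings of the start-site peaks moved. The nearest H3K4me1 peak ranked by signal value in the top 11.0% at CEBPA and 8.96% at CEBPB. By −log10 p-value it ranked in the top 6.94% and 0.966%, and by width 6.03% and 1.69%. At CEBPA this peak lay 1498 bp upstream, and a peak of 474 bp lay almost as near, 1557 bp downstream. By the same measures that one ranked in the top 52.3%, 44.6% and 68.9%. CEBPB had the higher promoter-like count under 50 kb, 200 kb, the stronger 50%, 50% overlap, summit windows and removal of weak H3K4me3. CEBPA had it in the full lists, where the −log10 q-value had to reach 5, with equal numbers and with joining.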
